A study of Homo sapiens with 15 samples.

Results

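The response to glutamine was measured in H1299 cells that had glucose, by setting 3 libraries from cells given 5 mM glucose and 4 mM glutamine against 3 libraries from cells given 5 mM glucose alone. These 6 of the 15 libraries of the series were chosen by their medium, and all genes were considered. H1299 is an established human cell line, a non-small cell lung carcinoma derived from a lymph node per the labels. The cells grew for a day in full RPMI medium with serum, were washed, and then spent 12 h in fresh RPMI without serum, so all 6 libraries share the line, the removal of serum, the glucose and the time, and glutamine is the labelled difference. The other 9 libraries came from cells with neither nutrient, with 4 mM glutamine alone, or with 5 mM glucose and 4 mM NH4Cl. Libraries were made from poly(A) RNA of total RNA extracts with a stranded kit. The labels call the cells of a medium triplicate and name no separate day, so p-values measure only how far these samples spread, and that spread may be technical.

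Glutamine supplies nitrogen for asparagine, nucleotides and hexosamines and carbon for the tricarboxylic acid cycle. When amino acids run short, uncharged tRNA activates the kinase GCN2, which phosphorylates the initiation factor eIF2, and translation of the factor ATF4 rises. ATF4 binds gene control regions that join a C/EBP site to an ATF site and raises genes of amino acid uptake, amino acid synthesis and tRNA charging. A separate system senses lipid: the factor SREBP leaves the endoplasmic reticulum with its escort SCAP and raises genes of cholesterol and fatty acid synthesis, unless INSIG proteins hold it there.

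The 6 libraries held 15615726 to 17300396 counted reads, and a floor of 3 counts lay at 0.16 to 0.179 CPM. CPM is the count of a gene relative to the library total as scaled by TMM, whose factors were 1.066 to 1.085. Glucose replicate 1 and replicate 3 with both nutrients had a count for 35114 and 33716 genes, against 25637 to 26876 in the other 4. Some results that rest on few counts are therefore also given without these libraries, and others, such as the counts of the largest changes, are not. Markers of the epithelial and mesenchymal lists were measured in both media, with KRT8 at 159 ± 5.02 and 297 ± 8.39 CPM, KRT18 at 296 ± 1.44 and 334 ± 11.5 CPM and VIM at 1833 ± 35.3 and 2067 ± 40.8 CPM. EPCAM and CDH1 did not pass the filter on low counts, nor did 5 of 6 lung lineage markers, whose summed level was 1.29 to 1.86 CPM with glucose alone and 0.901 to 1.6 CPM with both nutrients. Fibroblast markers summed to 1.24 to 3.45 and 2.98 to 3.46 CPM, with LUM at 0 counts in all 6 libraries. Endothelial markers summed to 11.2 to 13.3 and 17 to 18.8 CPM, most of it ENG, with CDH5 at 2 counts or fewer in each library. Leukocyte markers summed to 1.7 to 2.12 and 5.65 to 6.18 CPM, most of it CORO1A, with CD3E at 2 counts or fewer. The part of other cells in the results below was not tested. Counts come from whole cultures, so fewer cells with a transcript and less of it in each cell cannot be told apart.

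Glutamine changed most genes by a little and a few by much. Of 16889 genes with enough counts to test, 11467 changed, which is 67.9%. Of all tested genes 34.2% rose and 33.7% fell at an adjusted p under 0.05 by edgeR's quasi-likelihood test, and 5.87% rose and 6.31% fell at least 2-fold. Counts of gene groups below are read against these shares. The median log2 change of all tested genes was 0.00, with quartiles at -0.38 and 0.39. Large falls outnumbered large rises, with 180 genes at least 4-fold lower against 102 at least 4-fold higher, and 60 at least 8-fold lower against 13 higher. The share called rose with level, from 29.5% of genes under 1 CPM to 87.9% at 100 CPM or more, while the share changed at least 2-fold was 22.3% and 8.15% in those classes. A change below is always both nutrients over glucose alone, on the log2 scale, and levels are means ± SD of 3 libraries. The standard error (SE) given with a change is its absolute size divided by the root of the F statistic of its test. This SE is an approximation and can be too small where a change is large and counts are low.

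**Figure D1:**
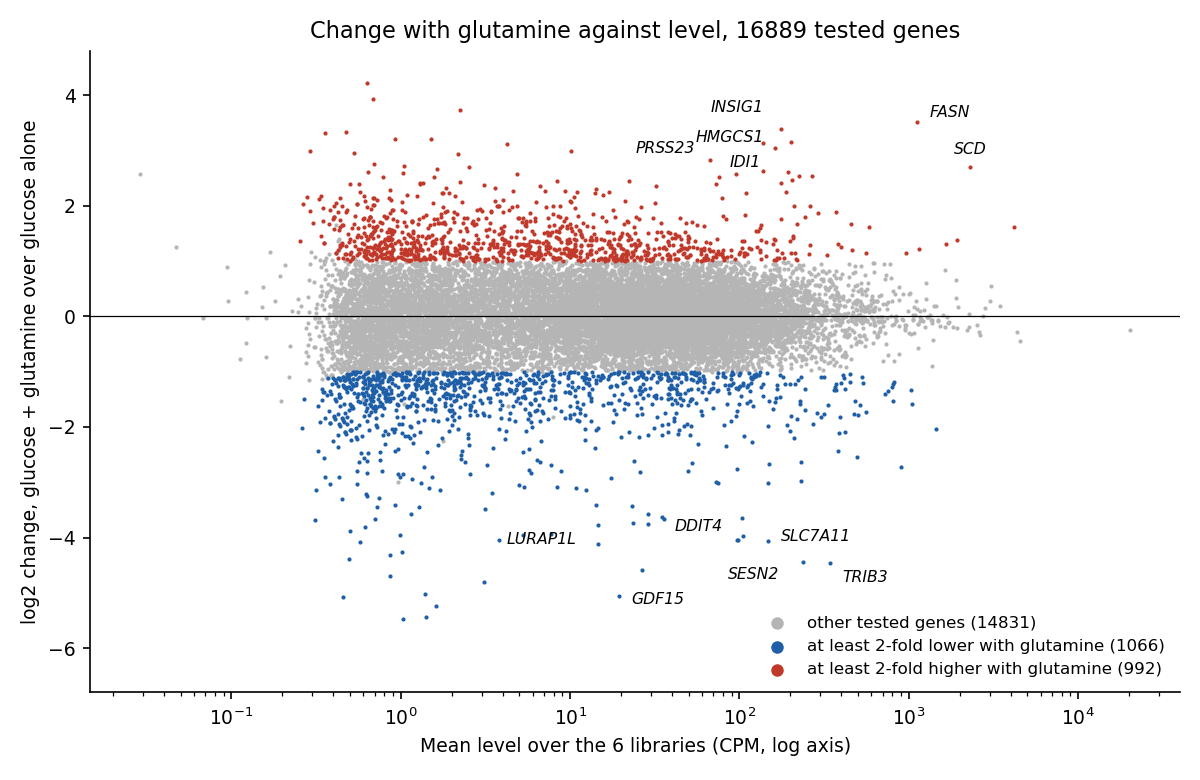
Each point is a tested gene, with its mean level over the 6 libraries in CPM (log axis) against its log2 change with glutamine. The 992 red genes rose and the 1066 blue genes fell at least 2-fold, and the largest falls among well counted genes (GDF15 at -5.05) reach farther from 0 than the largest rises (FASN at 3.52).

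Where the mean was 5 CPM or more and libraries of the media did not overlap, the 12 largest rises were mostly genes of lipid synthesis. Among them were FASN, INSIG1, HMGCS1, IDI1, RUSC1-AS1, PRSS23, SCD, MVD, LSS, DHCR7 and FDFT1, with changes of 2.53 to 3.52. INSIG1 (ENSG00000186480, chromosome 7, 155297776 to 155310235, plus strand) encodes the protein that holds SREBP and SCAP in the endoplasmic reticulum. It stood at 30.3, 29.2 and 33.3 CPM with glucose alone and 331, 322 and 318 CPM with both nutrients. The groups lie far apart, with a change of 3.39 ± 0.035 (adjusted p = 2.91e-151, edgeR). PRSS23 (ENSG00000150687, chromosome 11, 86791059 to 86952910, plus strand) encodes a secreted serine protease and belongs to none of the gene lists. Its levels were 15.8, 16.6 and 17.3 CPM with glucose alone and 122, 116 and 116 CPM with both nutrients, a change of 2.83 ± 0.048. RUSC1-AS1, an antisense RNA gene, stood at 2.08, 2.81 and 1.83 CPM with glucose alone and 17.3, 17.7 and 18.5 CPM with both nutrients. On the opposite strand its exons overlap those of FDPS, a cholesterol synthesis gene that rose by 2.41, and of RUSC1. No source used here gives the strand setting used in counting, so the change of 2.99 ± 0.123 is uncertain.

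The 12 largest falls were GDF15, ASNSP1, TRIB3, SESN2, LURAP1L, SLC7A11, DDIT3, DDIT4, EGR1, MT1X, SLC6A9 and ADM2, with changes of -5.05 to -3.76. Exons of DDIT3 overlap those of MARS1, and exons of SLC6A9 those of CCDC24, on the opposite strand, and 8.03% of the exon bases of DDIT3 are shared on its own strand, so the values of these genes, MARS1 included, are uncertain. GDF15 (ENSG00000130513, chromosome 19, 18374731 to 18389176, plus strand), a cytokine that cells secrete under stress, stood at 35.9, 38.6 and 38.5 CPM with glucose alone and 1.01, 1.43 and 0.959 CPM with both nutrients. That is 33.2-fold lower with glutamine, a change of -5.05 ± 0.110 (adjusted p = 6.95e-101, edgeR). SESN2 and DDIT4 encode inhibitors of the growth kinase mTORC1. SESN2 (ENSG00000130766, chromosome 1, 28259527 to 28282491, plus strand) stood at 447, 449 and 461 CPM with glucose alone and 21.1, 20.8 and 20.8 CPM with both nutrients, 21.7-fold lower. DDIT4 (ENSG00000168209, chromosome 10, 72273920 to 72276036, plus strand) stood at 179.6, 187 and 181 CPM with glucose alone and 11.1, 11.7 and 10.4 CPM with both nutrients, 16.5-fold lower. Libraries of the media do not overlap in any of these 12 genes, because that was a condition of their choice. LURAP1L (ENSG00000153714, chromosome 9, 12775021 to 12822131, plus strand), a gene outside the lists, stood at 28, 27.7 and 27.3 CPM with glucose alone and 1.63, 1.84 and 1.33 CPM with both nutrients, 17.3-fold lower.

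ADM2, which encodes the peptide hormone intermedin, fell from 53.6 ± 2.29 to 3.95 ± 0.275 CPM, and SLC6A9, the glycine transporter gene GLYT1, fell from 27.4 ± 2.56 to 1.98 ± 0.354 CPM. EGR1, an immediate early transcription factor gene, fell from 196 ± 2.68 to 12.5 ± 0.433 CPM. MT1X, a metallothionein gene, fell from 14.4 ± 0.841 to 0.942 ± 0.115 CPM, and 18.1% of its exon bases are shared with other genes on the same strand. ASNSP1, a pseudogene of ASNS, fell from 51 ± 2.11 to 2.12 ± 0.262 CPM, and ASNS, which makes asparagine from aspartate and glutamine, fell from 26 ± 0.428 to 2.41 ± 0.233 CPM. Reads of these copies may not be separable, and 44.6% of the exon bases of ASNS are shared with other counted genes on its strand, so the levels of both are uncertain.

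A minority of promoters of falling genes held the kind of element that ATF4 is known to bind, a larger share than among all promoters. RefSeq (GRCh38.p14) gave a promoter, 250 bases before to 50 after the start, for 11586 of the 16889 tested genes. The core of the C/EBP-ATF element, TGATGNAA on either strand, was found in 1.64% of them (190 of 11586). It was found in 6.05% of promoters of genes at least 2-fold lower (37 of 612) and in 11% of those at least 4-fold lower (11 of 100). Among genes at least 2-fold higher the share was 1.9% (13 of 685), and 0 of 69 promoters at least 4-fold higher held it. These shares describe letters and not binding. Among the largest falls, GDF15, SESN2, LURAP1L, DDIT3, DDIT4, MT1X and ADM2 had a matched promoter, and none of these held the element. Stretches at the start of 5 genes that fell are shown because they place the element in a gene of asparagine synthesis, a glutathione-degrading enzyme (CHAC1), a stress factor (ATF3) and tRNA synthetases, with the element in capitals. They lie at chr7:97872413-97872532 (minus strand), chr15:40953221-40953340 (plus strand), chr1:212565160-212565279 (plus strand), chr16:70289660-70289719 (minus strand) and chr9:92293698-92293757 (minus strand), and each is written 5′ to 3′ on the strand that RefSeq gives for its gene. Bases after the start were found in that direction in GENCODE transcripts of ASNS, CHAC1 and ATF3. Transcripts were looked up by these gene names alone. For AARS1 and IARS1 that gave no match in either direction, so their direction was not checked.
ASNS: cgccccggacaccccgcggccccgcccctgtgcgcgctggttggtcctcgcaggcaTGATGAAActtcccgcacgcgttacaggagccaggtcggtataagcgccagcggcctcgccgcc
CHAC1: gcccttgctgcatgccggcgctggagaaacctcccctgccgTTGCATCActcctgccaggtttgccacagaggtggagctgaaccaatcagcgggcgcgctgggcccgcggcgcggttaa
ATF3: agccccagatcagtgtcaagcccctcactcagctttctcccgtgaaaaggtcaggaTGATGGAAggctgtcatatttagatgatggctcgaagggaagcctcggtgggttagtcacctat
AARS1: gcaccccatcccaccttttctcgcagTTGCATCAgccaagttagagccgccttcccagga
IARS1: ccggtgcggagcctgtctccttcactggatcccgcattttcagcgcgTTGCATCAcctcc
In CHAC1, AARS1 and IARS1 the element runs on the other strand. In ASNS its last bases overlap a match to the heat shock element described further on.

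Genes of amino acid response signalling fell at the level of its effectors, while most of the sensor genes rose by small amounts. Of 21 tested genes 14 fell and 6 rose, 11 and 1 at least 2-fold, with a median of -1.76. The effectors fell: CHAC1 stood at 63.4, 64.8 and 65 CPM with glucose alone and 5.35, 5.36 and 4.85 CPM with both nutrients, and ATF3 at 53.8, 50 and 56.3 CPM with glucose alone and 4.5, 4.05 and 4.74 CPM with both nutrients. Neither gene had overlapping groups, and the changes were -3.63 ± 0.068 and -3.58 ± 0.069. NUPR1 (-3.48), PPP1R15A (-3.01), whose product returns eIF2 to its active form, and the C/EBP genes CEBPB (-2.99) and CEBPG (-1.94) fell as well, and the ATF4 transcript fell by 1.82. The eIF2 kinase genes EIF2AK4 (which encodes GCN2), EIF2AK2 and EIF2AK1 rose by 0.19, 0.23 and 0.24, and EIF2AK3 did not pass the test (-0.10 ± 0.093, adjusted p = 0.32, edgeR). EIF2S1, the gene of the subunit that they phosphorylate, rose by 0.30. Within the Tribbles family TRIB3 fell by 4.46 and TRIB1 by 0.78, while TRIB2 rose by 1.48. Tested against a 1.2-fold change, 14 genes of the list fell and 2 rose, so most of the rises are small.

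Aminoacyl-tRNA synthetases load tRNA with amino acids, with separate genes for cytosol and mitochondria. Of 20 cytosolic genes 14 fell, 11 of them at least 2-fold, and 6 rose (median -1.16). Of 17 mitochondrial genes 1 fell and 9 rose, 0 at least 2-fold, with a median of 0.16, and 0 fell against a 1.2-fold change. The difference between the sets was not tested. GARS1, the glycyl enzyme that serves both compartments, stood at 760, 773 and 802 CPM with glucose alone and 226, 229.9 and 226 CPM with both nutrients, a change of -1.78 ± 0.021. WARS1, the tryptophanyl enzyme, stood at 433, 442 and 446 CPM with glucose alone and 129, 131 and 131 CPM with both nutrients, a change of -1.75 ± 0.024. The libraries of the media did not overlap in either gene. SARS1, CARS1, AARS1, IARS1, YARS1, MARS1, NARS1, TARS1 and EPRS1 had changes from -1.61 to -1.12, and LARS1 fell by 0.70. The cytosolic genes that rose were FARSA (0.73), HARS1 (0.49), RARS1 (0.41), KARS1 (0.40), VARS1 (0.35) and QARS1 (0.22). QARS1 charges the tRNA of glutamine itself. FARSA and FARSB encode the subunits of a single enzyme and moved apart, with FARSB at -0.27 ± 0.034. On the mitochondrial side LARS2 rose by 0.69 and EARS2 by 0.50, HARS2 fell by 0.24, and TARS2 did not pass (-0.00 ± 0.049, adjusted p = 0.956, edgeR).

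The ATF4-type element TGATGNAA was found in 6 of 16 matched promoters of cytosolic synthetases (37.5%, against 1.64% of all). These were AARS1, CARS1, IARS1, MARS1, NARS1 and TARS1, and all 6 genes fell at least 2-fold. The matched promoters of GARS1 and WARS1, the largest falls of the list, did not hold the element. In AARS1 and IARS1 it lies within the stretches printed above. The amino acid transporters had it in 4 of 19 promoters (21.1%): SLC3A2, SLC7A1 and SLC38A1, which fell, and SLC1A3, which did not pass (0.61 ± 0.303, adjusted p = 0.0662, edgeR). SLC1A3, counted at low levels, passed without replicate 1 of either medium, at 0.77 without the glucose library and 0.80 without the other.

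**Figure D2:**
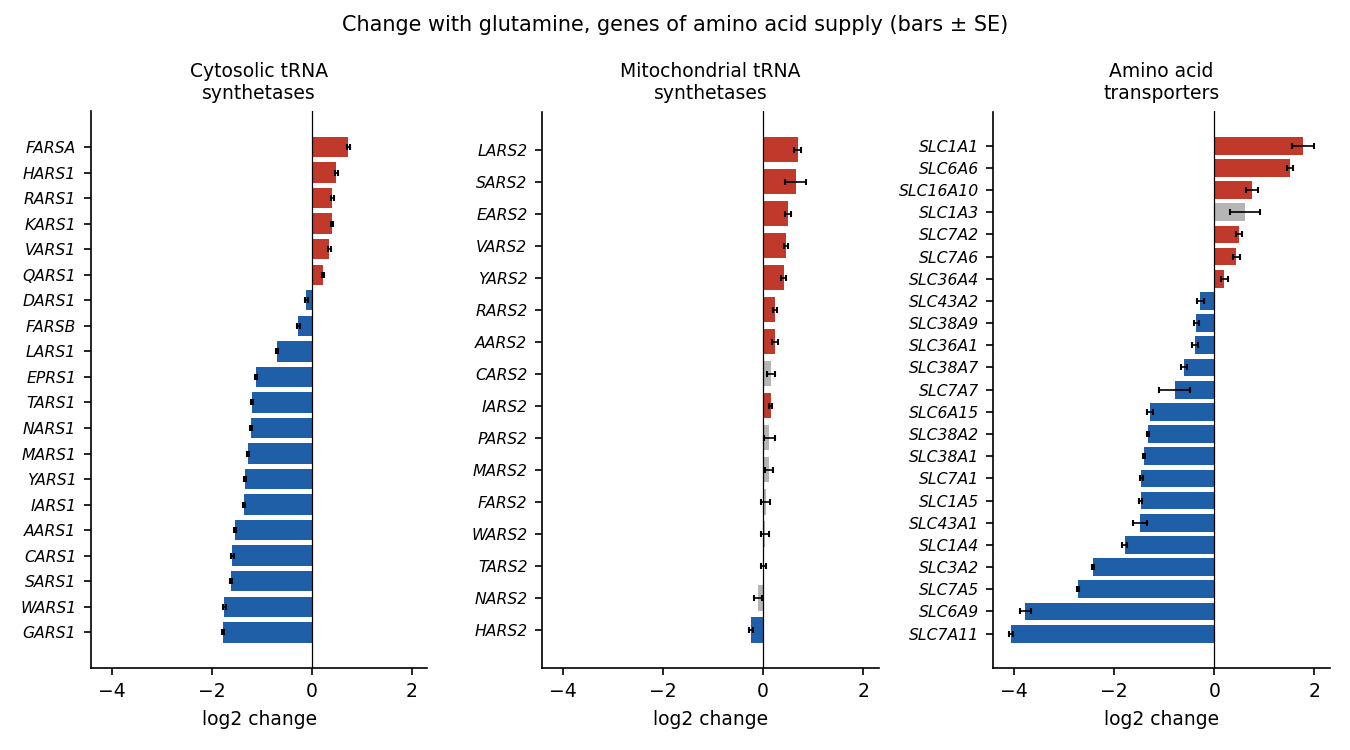
Bars give the log2 change of each gene shown with glutamine and whiskers its SE, in red for genes that rose, blue for genes that fell and grey for genes that did not pass the test. Cytosolic synthetases reach -1.78 (GARS1) and amino acid transporters -4.07 (SLC7A11), while the mitochondrial synthetases lie between -0.24 and 0.69.

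Genes of amino acid transport mostly fell. Of 23 tested transporter genes (28 listed, 5 with too few counts) 16 fell and 6 rose, 11 and 2 at least 2-fold, with a median of -0.79. SLC7A11, the cystine and glutamate exchanger, stood at 281, 273 and 282 CPM with glucose alone and 16.1, 18.2 and 15.7 CPM with both nutrients. SLC7A5, the large neutral amino acid transporter LAT1, stood at 1541, 1577 and 1562 CPM with glucose alone and 248, 231 and 227 CPM with both nutrients. Its partner chain SLC3A2 stood at 637, 652 and 641 CPM with glucose alone and 119.9, 119.9 and 117 CPM with both nutrients. These 3 genes of the exchangers that trade amino acids across the membrane fell by 4.07, 2.73 and 2.43, with no overlap between groups. For SLC7A11, one of the largest falls, no overlap was a condition of choice. The glutamine carriers fell less, SLC1A5 by 1.47, SLC38A1 by 1.41 and SLC38A2 by 1.33. Rises were seen in SLC6A6, the taurine transporter (from 16.8 ± 0.293 to 48.3 ± 2.34 CPM), in SLC1A1, a glutamate carrier (1.78), and in SLC16A10 (0.75).

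Serine and one-carbon enzymes moved in both directions. Of 18 tested genes 9 fell and 6 rose, 5 and 3 at least 2-fold (median -0.08). The larger falls were in genes of serine synthesis and of the mitochondrial folate branch: PHGDH, the first enzyme of serine synthesis, from 344 ± 8.67 to 94.5 ± 1.36 CPM, PSAT1 from 490.1 ± 13.1 to 144 ± 3.46 CPM, MTHFD2 from 624 ± 3.1 to 145 ± 4.01 CPM and ALDH1L2 from 86.7 ± 5.26 to 12.5 ± 0.553 CPM. MTHFD1L and SHMT2, of the same mitochondrial branch, fell by 1.22 and 0.89. Of the cytosolic and thymidylate genes SHMT1 rose by 1.25, TYMS by 1.17 and MTHFD1 by 0.57. The mitochondrial glycine cleavage gene GLDC rose too, from 59.7 ± 2.69 to 153 ± 1.47 CPM. The methionine cycle genes MTR (0.08 ± 0.043, adjusted p = 0.0935, edgeR) and MTRR (-0.00 ± 0.051, adjusted p = 0.96) did not pass, though MTR did without replicate 3 of both nutrients (0.11).

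Among 21 enzymes that use or make glutamine, glutamate, aspartate and proline, 8 rose and 8 fell, and all 6 changes of at least 2-fold were falls. Against a 1.2-fold change 4 rose and 8 fell. GLUL, glutamine synthetase, rose by 0.19, a call lost when a 1.2-fold change was the test. The transaminases of aspartate moved apart. The cytosolic GOT1 stood at 394, 396 and 396 CPM with glucose alone and 62.9, 65.8 and 62.1 CPM with both nutrients (-2.64 ± 0.029). The mitochondrial GOT2 rose from 91.5 ± 4.06 to 155 ± 3.77 CPM (0.76 ± 0.031). GPT2, the alanine transaminase of mitochondria, fell by 1.31, and of the proline enzymes PYCR1 fell by 1.44 while ALDH18A1 rose by 0.36. GLUD1, glutamate dehydrogenase, stood at 247 ± 2.62 and 246 ± 3.96 CPM and did not pass (-0.01 ± 0.024, adjusted p = 0.845, edgeR).

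Autophagy genes fell more often than they rose. Of 34 autophagy genes 22 fell and 5 rose (median -0.39), 3 and 0 at least 2-fold, and 17 fell and 2 rose against a 1.2-fold change. MAP1LC3B, which encodes the membrane protein LC3B, stood at 819, 857 and 858 CPM with glucose alone and 143, 148 and 146 CPM with both nutrients. SQSTM1, the cargo receptor p62, stood at 1172, 1206 and 1192 CPM with glucose alone and 415, 417 and 408 CPM with both nutrients. Both lay lower in every library with glutamine, by 2.54 and 1.53, and GABARAPL1 fell by 1.45. The initiating kinase genes ULK1 and ULK2 fell by 0.63 and 0.81, and the conjugation enzyme ATG7 rose by 0.57. Of 36 lysosome genes 16 rose and 9 fell, none by 2-fold, with a median of 0.04, and 9 rose and 3 fell against a 1.2-fold change. Subunits of the proton pump ranged from -0.21 (ATP6V1H) to 0.86 (ATP6V1F).

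The list of nutrient sensing and mTORC1 genes also holds subunits of mTORC1 and factors downstream of it. Of its 33 tested genes 11 rose and 13 fell, near the shares of all genes, and 7 rose and 10 fell against a 1.2-fold change. SESN2 and DDIT4, described above, stood apart by size. The folliculin complex genes FLCN (-0.59) and FNIP1 (-0.79) and the Rag GTPase genes RRAGB (-0.69) and RRAGC (-0.59) fell. Ragulator genes LAMTOR1, LAMTOR2 and LAMTOR4 rose by 0.54, 0.51 and 0.38, as did the GATOR1 genes DEPDC5 (0.47) and NPRL2 (0.42). DEPP1 rose from 4.83 ± 0.471 to 15.2 ± 0.446 CPM. The hexosamine pathway takes its nitrogen from glutamine, and of its 8 genes 5 fell and 1 rose, or 2 rose without glucose replicate 2. GFPT1, the enzyme that uses glutamine, fell by 0.76, UAP1 fell from 603 ± 5.14 to 242 ± 2.12 CPM, OGT and OGA, which add and remove the sugar, fell by 0.73 and 0.53, and PGM3 rose by 0.65.

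Cholesterol synthesis genes had the highest median of the lists, 2.25 over 21 genes, with 20 higher, 15 of them at least 2-fold. GGPS1, which leads away from cholesterol to protein prenylation, was the gene that fell (-0.33 ± 0.089), a call lost against a 1.2-fold change, and 37.3% of its exon bases are shared with other genes on its strand. The size differed along the pathway. HMGCS1, which makes HMG-CoA, stood at 39.8, 40.7 and 43.1 CPM with glucose alone and 365, 364 and 364 CPM with both nutrients. IDI1, the isoprenoid isomerase gene, stood at 35.3, 34.8 and 35.3 CPM with glucose alone and 288, 288 and 289.5 CPM with both nutrients. LSS, which closes the sterol rings, stood at 53.6, 55.4 and 55.2 CPM with glucose alone and 341, 335 and 326 CPM with both nutrients. These genes are among the largest rises named above, for which no overlap between media was a condition of choice. SQLE, the squalene epoxidase gene, rose by 1.76, PMVK by 0.56 and CYP51A1 by 0.51, so that the pathway's rises ran from 0.51 to 3.15.

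Promoters of these genes were searched for a sterol regulatory element (TCACNCCA) and for the CCAAT box that binds NF-Y (CCAAT), on both strands. CCAAT was found in 12 of 16 cholesterol synthesis promoters (75%) and 36.5% of all promoters, and in 55.1% of genes at least 4-fold higher. Its share was 38.5% of genes at least 2-fold higher, 36.8% of those at least 2-fold lower and 42% of those at least 4-fold lower. TCACNCCA was found in 2 of 16 (12.5%) against 3.33% of all, and in 6 of 69 genes at least 4-fold higher (8.7%). It was in 3.5% of genes at least 2-fold higher, 3.59% of those at least 2-fold lower and 4% of those at least 4-fold lower, near its share of all. The cholesterol synthesis promoters that hold it are those of MSMO1, a sterol demethylation gene that rose by 2.51, and MVK, the mevalonate kinase gene, which rose by 1.97. They are shown with the element in capitals, at chr4:165327457-165327576 (plus strand) and chr12:109573544-109573663 (plus strand).
MSMO1: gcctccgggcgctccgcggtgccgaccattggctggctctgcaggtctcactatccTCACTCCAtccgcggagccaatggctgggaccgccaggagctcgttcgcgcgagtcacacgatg
MVK: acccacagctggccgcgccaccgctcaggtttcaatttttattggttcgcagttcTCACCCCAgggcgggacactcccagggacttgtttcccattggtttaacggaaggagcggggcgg

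In fatty acid and glycerolipid synthesis 19 of 28 genes rose and 4 fell (median 0.45), 11 and 1 at least 2-fold, with 2 lower against a 1.2-fold change. Beyond FASN and SCD, the genes of acetyl-CoA supply rose: ACLY from 125 ± 5.58 to 458 ± 10.7 CPM, ACSS2 by 1.45 and the citrate carrier SLC25A1 from 65.7 ± 2.16 to 191 ± 6.48 CPM. ACACA, which makes malonyl-CoA, rose by 1.25, the desaturase genes FADS1 and FADS2 by 1.14 and 1.03, and LPIN1 by 1.36, whereas LPIN2 fell by 0.77. Of the enzymes that add fatty acids to glycerol, GPAT4 (-0.04 ± 0.044, adjusted p = 0.469, edgeR) did not pass and GPAT3 fell by 0.31. MID1IP1, whose product promotes acetyl-CoA carboxylase polymers, fell from 74.8 ± 5 to 24.4 ± 0.621 CPM. Among 19 genes of sterol sensing, uptake and efflux 10 rose and 4 fell. SREBF1 and SREBF2, which encode the SREBP factors, rose by 1.29 and 0.92. INSIG2, the relative of INSIG1, did not pass (0.09 ± 0.066, adjusted p = 0.232, edgeR). STARD4, a sterol carrier, rose from 29 ± 0.453 to 128 ± 2.59 CPM, and ABCA1, which exports cholesterol, fell from 38.3 ± 0.265 to 17.5 ± 0.467 CPM. MBTPS2, a protease that releases SREBP, fell by 0.69, and MBTPS1, which cuts before it, did not pass (0.02 ± 0.027, adjusted p = 0.592, edgeR).

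**Figure D3:**
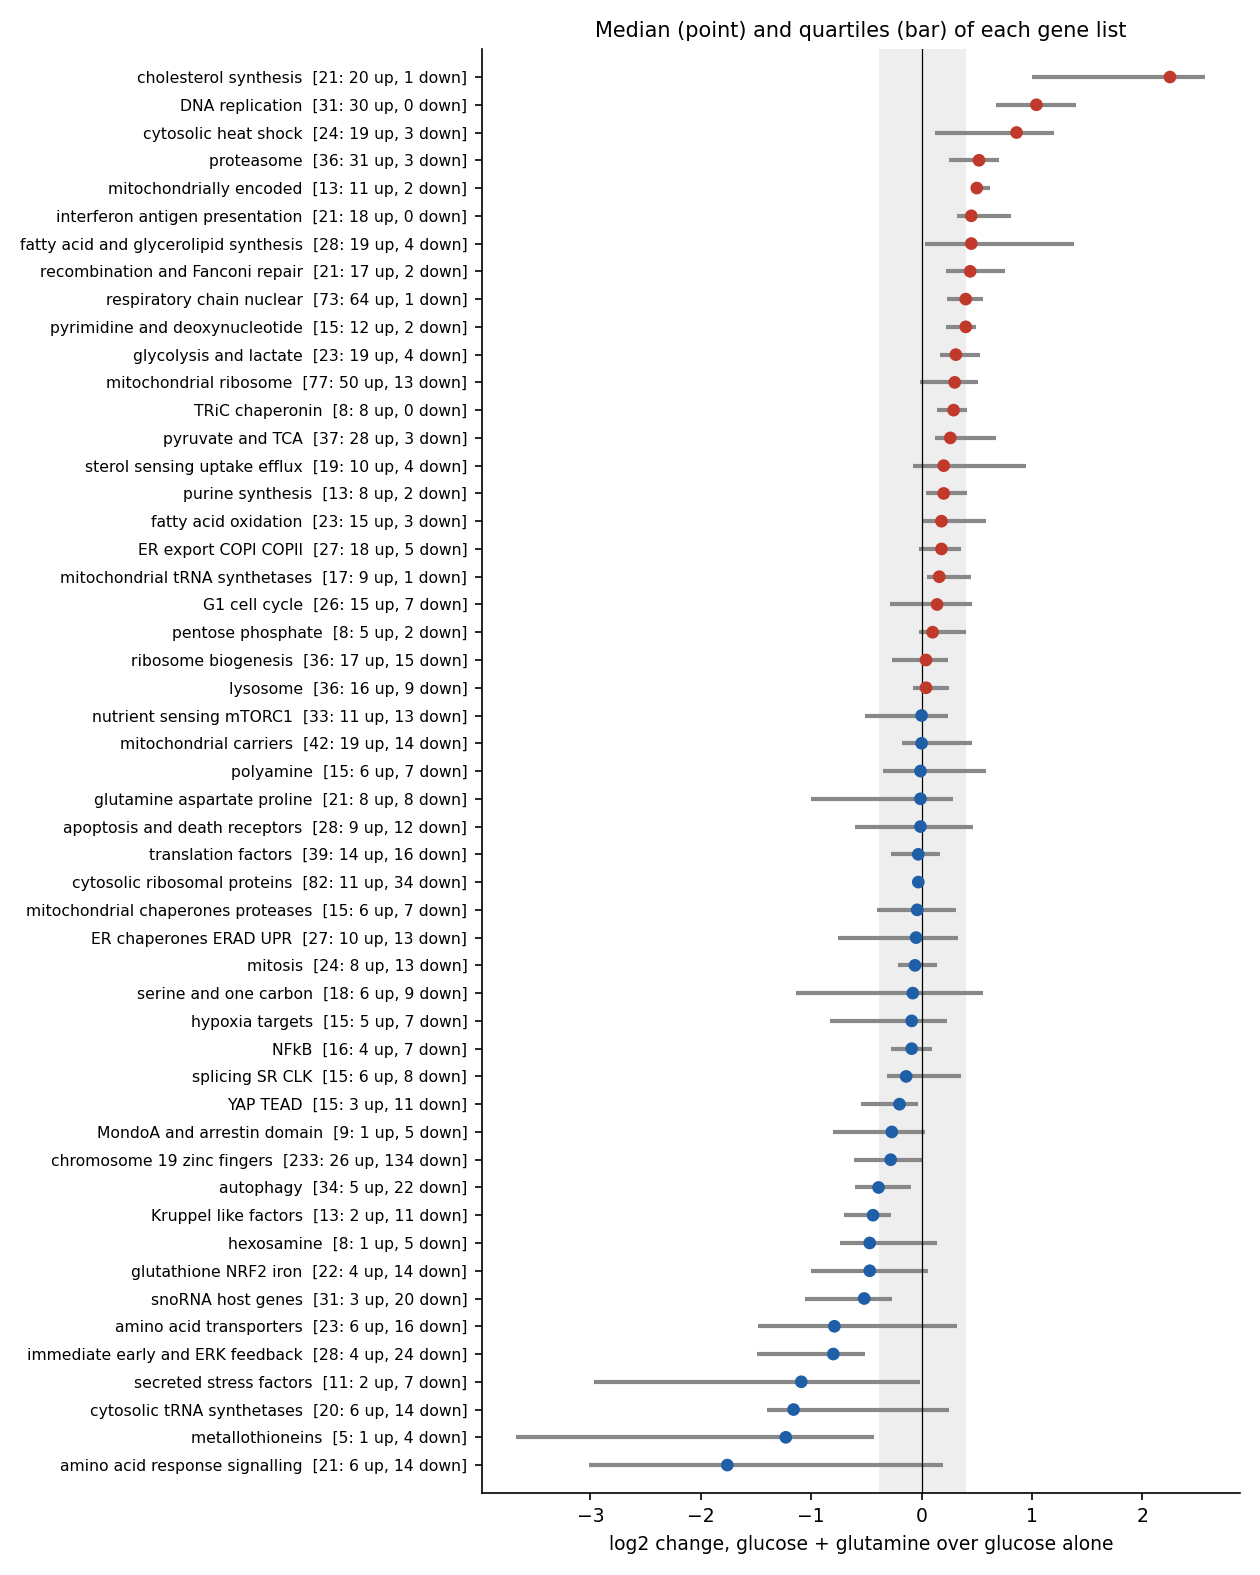
Points give the median log2 change of the tested genes of each list and bars the quartiles, beside the number tested, higher and lower, and the grey band spans the quartiles of all tested genes (-0.38 to 0.39). Cholesterol synthesis (2.25) and DNA replication (1.04) lie highest, and amino acid response signalling (-1.76), metallothioneins (-1.23) and cytosolic tRNA synthetases (-1.16) lowest.

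Energy metabolism genes rose in number but by small amounts. In glycolysis 19 of 23 genes rose and 4 fell (median 0.31), and 12 rose and 3 fell against a 1.2-fold change. LDHA, which makes lactate, rose from 353 ± 5.2 to 615 ± 4.03 CPM and TPI1 from 488 ± 11 to 941 ± 5.79 CPM. PFKFB4, whose enzyme sets the level of a phosphofructokinase activator, rose from 3.42 ± 0.132 to 12.4 ± 0.56 CPM, while its relative PFKFB2 fell by 1.10. SLC2A3, the glucose transporter GLUT3, fell from 126 ± 1.19 to 41.9 ± 0.962 CPM, SLC2A1 (GLUT1) rose by 0.44, and HK2 fell by 0.67 where HK1 rose by 0.10. Of 8 pentose phosphate genes 5 rose, led by PGD (0.85), and 2 fell. The falls were 1 with any 1 of the 6 libraries left out, with library totals, with no filter and with the DESeq2 Wald test, and 2 rose and 0 fell against a 1.2-fold change.

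In pyruvate and tricarboxylic acid metabolism 28 of 37 genes rose and 3 fell (median 0.26), and 18 rose and 2 fell against a 1.2-fold change. PCK2, the mitochondrial enzyme that makes phosphoenolpyruvate, went against the rest. Its levels were 166, 173 and 164 CPM with glucose alone and 25.4, 25.1 and 24 CPM with both nutrients, a change of -2.76 ± 0.039. IDH2 rose by 1.04 and its cytosolic counterpart IDH1 fell by 0.42, and PDK3, a brake on pyruvate dehydrogenase, rose by 1.34. Nuclear genes of the respiratory chain rose in 64 of 73 cases and fell in 1 (median 0.40), with 3 at least 2-fold, for example NDUFB10, a complex I gene, from 36.2 ± 1.39 to 82 ± 1.18 CPM. Of 13 genes of the mitochondrial chromosome 11 rose (median 0.50), such as MT-ATP6 from 343 ± 9.16 to 592 ± 7.16 CPM, MT-ND1 fell by 0.33, and MT-ND2 fell by 0.05, a call lost without glucose replicate 3 (-0.03), without replicate 1 (-0.03) or 3 (-0.05) of both nutrients, and without the low-count filter (-0.04). All mitochondrial genes together took 0.8486 to 0.8672% of counts with glucose alone and 0.9381 to 0.9667% with both nutrients. Mitochondrial ribosome genes rose in 50 of 77 cases and fell in 13 (median 0.30), and fatty acid oxidation genes in 15 and 3 of 23 (median 0.18). Against a 1.2-fold change 37 mitochondrial ribosome genes rose and 5 fell, and 8 fatty acid oxidation genes rose and 2 fell. CPT1A, which controls fatty acid entry to mitochondria, fell by 0.41, and HADH rose by 0.87. Of 42 mitochondrial carrier genes 19 rose and 14 fell (13 rose and 7 fell against a 1.2-fold change), with SLC25A38, a glycine carrier, at -1.05 and SLC25A22, a glutamate carrier, at 0.45.

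Genes that copy DNA rose with glutamine and genes that carry out mitosis divided in direction. Of 31 DNA replication genes 30 rose and 0 fell, 16 of the rises at least 2-fold (median 1.04). MCM4, a subunit of the replicative helicase, stood at 151, 164 and 158 CPM with glucose alone and 577, 591 and 573 CPM with both nutrients. GINS2, of the complex that activates it, stood at 18.2, 22.4 and 20 CPM with glucose alone and 69.9, 70.3 and 68.1 CPM with both nutrients. PCNA, the sliding clamp, rose by 1.37, FEN1, which trims Okazaki fragments, by 1.65, and the licensing genes CDC6 and CDT1 by 1.42 and 0.34. GINS3 did not pass (0.15 ± 0.076, adjusted p = 0.0747, edgeR), and passed without glucose replicate 3 (0.23). In recombination and Fanconi repair 17 of 21 genes rose and 2 fell, or 1 without glucose replicate 1, with FANCL at 1.29 and RAD54L at 1.16. Of 15 pyrimidine and deoxynucleotide genes 12 rose, such as TK1 (0.98) and CAD (0.41), whose first domain uses glutamine. The p53-inducible reductase subunit RRM2B fell by 0.36. Of 13 purine genes 8 rose, among them PRPS2 (0.71), and 2 fell, among them GART (-0.49). Against a 1.2-fold change 4 purine genes rose and 1 fell.

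Among 26 genes of G1 control 15 rose and 7 fell, and 9 rose and 7 fell against a 1.2-fold change. CCNE2 and CCND3, cyclins, rose by 1.18 and 1.01, the F-box gene SKP2 by 1.23 and E2F1 by 0.94. CCND2, another cyclin, stood at 11, 11.4 and 12 CPM with glucose alone and 1.01, 2.26 and 2.24 CPM with both nutrients, a change of -2.63 ± 0.145, and CDKN1B, the inhibitor p27, fell by 0.98. Of 24 mitosis genes 13 fell and 8 rose, with none at 2-fold and a median of -0.06. Cyclin B1 (CCNB1, 0.56) and securin (PTTG1, 0.58) rose, CENPE (-0.53) and PLK1 (-0.35) fell. Against a 1.2-fold change 4 mitosis genes rose and 4 fell.

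Chaperone genes of the cytosol mostly rose, while those of the endoplasmic reticulum and of mitochondria moved in both directions. The difference between compartments was not tested. Cytosolic heat shock genes rose in 19 of 24 cases and fell in 3, 11 and 0 at least 2-fold (median 0.86). HSPB1, the small heat shock protein HSP27, stood at 85.6, 83 and 84.3 CPM with glucose alone and 349, 335 and 329 CPM with both nutrients. HSPA8, the constitutive HSP70 gene, rose by 1.37, HSP90AA1 by 1.61 and DNAJA1 from 105 ± 4.93 to 334 ± 4.65 CPM. The inducible HSP70 genes HSPA1A and HSPA1B rose by 2.53 and 2.46, and as near-identical copies they cannot be told apart with certainty. HSF1, the factor that drives these genes, rose by 0.06, and HSPA4 (0.00 ± 0.021, adjusted p = 0.949, edgeR) and HSF2 did not pass.

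A pair of inverted units of the heat shock element, GAANNTTC, which reads the same on both strands, was found in 8 of 21 matched promoters of the list (38.1%) and 4.79% of all. Of these 8 genes HSPA1A, HSPA1B, HSPB1, DNAJA1, HSPA8 and CHORDC1 rose, and DNAJB6 (-0.25) and SERPINH1 (-0.14) fell. Beyond this list the element was in 6.28% of promoters of genes at least 2-fold higher and 5.56% of those at least 2-fold lower. Its share was 5.8% of those at least 4-fold higher and 7% of those at least 4-fold lower, so it did not follow the direction of change. Stretches of HSPB1, HSPA8 and DNAJA1, chosen as the larger rises beside HSPA1A and HSPA1B, are shown with the element in capitals, at chr7:76302465-76302524 (plus strand), chr11:123062327-123062386 (minus strand) and chr9:33025049-33025108 (plus strand).
HSPB1: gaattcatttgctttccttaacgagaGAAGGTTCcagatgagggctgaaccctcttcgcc
HSPA8: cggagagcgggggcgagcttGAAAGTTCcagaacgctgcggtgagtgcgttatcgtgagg
DNAJA1: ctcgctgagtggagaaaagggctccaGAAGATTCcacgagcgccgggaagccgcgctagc

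In the endoplasmic reticulum 10 of 27 genes of folding, degradation and the unfolded protein response rose and 13 fell, 4 and 6 at least 2-fold. HSPA5, the chaperone BiP, stood at 2301, 2363 and 2337 CPM with glucose alone and 580.4, 572 and 549 CPM with both nutrients, a change of -2.04 ± 0.016. CALR, the lectin chaperone calreticulin, stood at 219, 223 and 217 CPM with glucose alone and 545, 553 and 531 CPM with both nutrients, a change of 1.31 ± 0.020. These chaperones of the same compartment thus moved in opposite directions, each without overlap. The sensor genes ERN1 (IRE1) and ATF6 fell by 2.12 and 1.33, and XBP1, HERPUD1, HYOU1 and DNAJB9 by 1.19, 1.49, 1.31 and 0.96. SDF2L1, CRELD2, MANF and PDIA4 rose by 1.28, 1.16, 1.12 and 0.94, and HSP90B1, the chaperone GRP94, by 0.23. Export machinery of COPI and COPII coats rose in 18 of 27 genes and fell in 5 (3 with no filter, and 8 rose and 2 fell against a 1.2-fold change), with SEC61B at 0.77 and SEC63 at -0.73.

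In mitochondria 6 of 15 chaperone and protease genes rose and 7 fell, and 3 rose and 5 fell against a 1.2-fold change. HSPE1, the cochaperone HSP10, stood at 21.4, 24.3 and 23.2 CPM with glucose alone and 75.2, 73.9 and 72.1 CPM with both nutrients (1.68 ± 0.047). Its partner HSPD1, the chaperone HSP60, did not pass (-0.02 ± 0.016, adjusted p = 0.322, edgeR). HSPA9, the HSP70 of mitochondria, stood at 1120, 1132 and 1144 CPM with glucose alone and 494, 499 and 495 CPM with both nutrients (-1.19 ± 0.018), and the protease LONP1 fell by 1.03. Proteasome genes rose in 31 of 36 cases and fell in 3 (median 0.52), with 0 falls against a 1.2-fold change, led by PSMB6 from 63.9 ± 3.15 to 186 ± 2.65 CPM, and all 8 genes of the TRiC chaperonin rose (median 0.29), 3 of them against a 1.2-fold change.

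**Figure D4:**
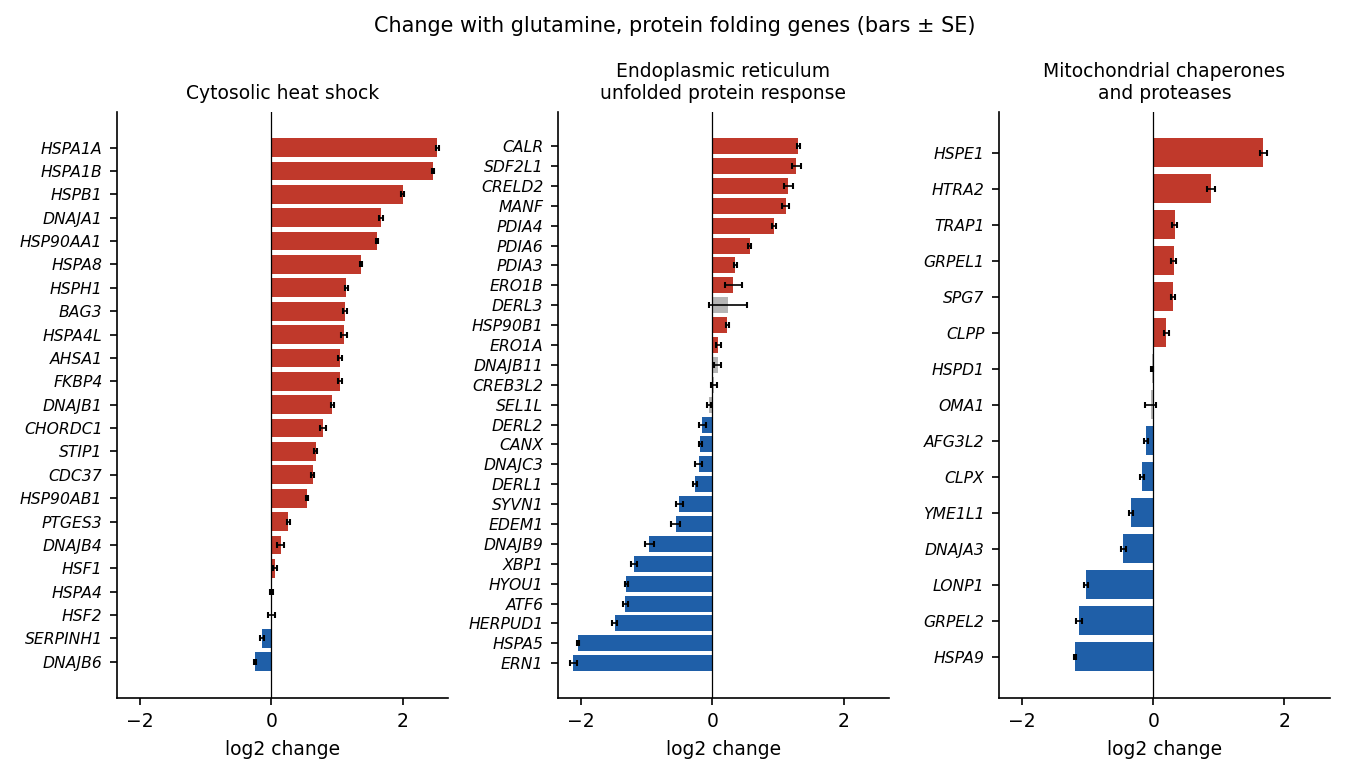
Bars give the log2 change of each folding gene shown with glutamine and whiskers its SE, in red for genes that rose, blue for genes that fell and grey for genes that did not pass. Cytosolic genes reach 2.53 (HSPA1A), whereas the endoplasmic reticulum spans -2.12 (ERN1) to 1.31 (CALR) and mitochondria -1.19 (HSPA9) to 1.68 (HSPE1).

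Transcripts that host small nucleolar RNAs, with other noncoding nuclear RNAs listed beside them, mostly fell, while ribosomal protein genes hardly moved. Of 31 tested genes 20 fell and 3 rose, 8 and 0 at least 2-fold, with a median of -0.52. SNHG1 stood at 342, 343 and 343 CPM with glucose alone and 74.6, 75 and 74.4 CPM with both nutrients. NEAT1, the RNA that builds paraspeckles, stood at 738, 735 and 738 CPM with glucose alone and 221, 215 and 216 CPM with both nutrients. Neither overlapped between media, with changes of -2.20 ± 0.028 and -1.76 ± 0.022. SNHG12 fell by 2.09, GAS5 by 0.89 and MALAT1 by 0.80, while SNHG10 rose by 0.80 and SNHG16 did not pass (-0.06 ± 0.040, adjusted p = 0.168, edgeR). Of 82 cytosolic ribosomal protein genes 34 fell and 11 rose, none by 2-fold, with a median of -0.03. The falls numbered 20 with no filter on low counts, and against a 1.2-fold change 1 fell and 2 rose. Of 36 ribosome biogenesis genes 17 rose and 15 fell (8 rose and 6 fell against a 1.2-fold change), with NOP16 at 0.97 and RRN3, a polymerase I factor, at -0.77. Among 39 translation factor genes 14 rose and 16 fell (8 rose and 10 fell against a 1.2-fold change), and EIF1, which guards start codon choice, stood out at 836, 869 and 859 CPM with glucose alone and 252, 266 and 254 CPM with both nutrients (-1.73 ± 0.021). EIF2S2 and EIF2S3, the other subunit genes of eIF2, fell by 0.92 and 0.85, against the rise of EIF2S1.

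Immediate early genes and feedback genes of ERK signalling fell in 24 of 28 cases, 11 of them at least 2-fold, and 4 rose (median -0.80). Besides EGR1, FOS fell from 15.5 ± 0.719 to 4.37 ± 0.229 CPM, DUSP6, a phosphatase that switches off ERK, stood at 169, 174 and 172 CPM with glucose alone and 59.6, 58.7 and 59.2 CPM with both nutrients, and MAFF fell by 2.05. JUN and JUNB each fell by 1.08, JUND rose by 0.16, and of the Sprouty genes SPRY4 fell by 0.86 while SPRY1 and SPRY2 rose by 1.10 and 0.49. Of 13 Kruppel-like factor genes 11 fell, led by KLF9 (-1.48), and 2 rose, among them KLF2 (0.53). The rises were 1 without glucose replicate 1, without replicate 3 of both nutrients, and without these 2 libraries together. In the YAP and TEAD list 11 of 15 genes fell and 3 rose (6 and 2 against a 1.2-fold change), and its target genes did not share a direction: CCN2 fell from 322 ± 5.26 to 76 ± 2.38 CPM, ANKRD1 rose from 3.23 ± 0.0877 to 8.03 ± 0.974 CPM, and CCN1 did not pass (0.01 ± 0.022, adjusted p = 0.662, edgeR). Of 16 NF-kB genes 4 rose and 7 fell, with the chemokine gene CXCL2 lower (from 303 ± 8 to 77.4 ± 4.47 CPM) and the inhibitor gene NFKBIA higher (0.43), and 2 genes rose without replicate 1 of both nutrients. Against a 1.2-fold change 2 NF-kB genes rose and 4 fell. Interferon and antigen presentation genes rose in 18 of 21 cases and fell in 0 (median 0.45), for example ISG15 from 12.7 ± 0.479 to 27.6 ± 1.21 CPM and PSMB9, an immunoproteasome subunit, from 4.34 ± 0.912 to 13.5 ± 1.46 CPM.

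Redox and metal genes mostly fell. In the list of glutathione, NRF2 and iron genes 14 of 22 fell and 4 rose (median -0.47). TXNRD1, thioredoxin reductase, stood at 1532, 1555 and 1582 CPM with glucose alone and 522, 518 and 521 CPM with both nutrients. NFE2L2, which encodes NRF2, fell by 1.25, CTH, which makes cysteine, by 1.44, and HMOX1 by 1.03. TFRC, the transferrin receptor that brings in iron, went the other way at 102, 109 and 103 CPM with glucose alone and 413, 429.9 and 406 CPM with both nutrients. The ferritin genes FTH1 and FTL fell by 0.44 and 0.37. Of 5 tested metallothionein and zinc genes 4 fell and 1 rose: SLC30A1, the zinc exporter, stood at 65.8, 67.9 and 66.6 CPM with glucose alone and 5.24, 4.34 and 6.08 CPM with both nutrients, MT2A fell from 260 ± 20.9 to 111 ± 4.37 CPM, and SLC39A10, a zinc importer, rose from 38.1 ± 0.75 to 129 ± 2.07 CPM. The exporter and the importer therefore changed in opposite directions.

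Secreted factors of stress mostly fell, with 7 of 11 tested genes lower and 2 higher, and 4 lower without the 2 libraries in which most genes had a count. STC2, a stanniocalcin, stood at 189.8, 193 and 191 CPM with glucose alone and 14.5, 17.6 and 14.3 CPM with both nutrients. VEGFA, the angiogenic factor, stood at 94.5, 92.3 and 96.6 CPM with glucose alone and 19, 17.7 and 20.3 CPM with both nutrients. TGFB2 rose by 1.47, and LIF did not pass (-0.06 ± 0.080, adjusted p = 0.53, edgeR). In the hypoxia list 7 of 15 genes fell and 5 rose, 3 and 0 at least 2-fold (6 and 3 against a 1.2-fold change). EPAS1, which encodes the subunit HIF2A, fell from 19.3 ± 1.21 to 2.24 ± 0.393 CPM, while HIF1A rose by 0.10. P4HA2 and BNIP3, among the genes of the list that rose, did so by 0.75 and 0.39. Of 9 MondoA and arrestin-domain genes 5 fell and 1 rose, a count of rises that ran from 0 without replicate 1 of both nutrients to 2 without glucose replicate 1 or 2 or without replicate 3 of both nutrients, with ARRDC4 at -3.05 and ARRDC3 at -0.98. TXNIP held at most 7 counts in a library and was not tested. Among 28 apoptosis genes 9 rose and 12 fell. The death receptor genes moved apart, TNFRSF10B (DR5) falling from 237 ± 7.63 to 59.5 ± 1.83 CPM and TNFRSF10A (DR4) and FAS rising by 0.48 and 0.81. MCL1, a survival gene, fell from 622 ± 2.19 to 274 ± 3.38 CPM, and the killer genes BBC3 and HRK fell by 1.25 and 1.78. Polyamine genes rose in 6 and fell in 7 of 15 cases, with ODC1, the first enzyme, at -0.71, SAT1, which starts polyamine breakdown, at -1.01, and AMD1 at 0.92. Splicing genes rose in 6 and fell in 8 of 15 cases (4 and 4 against a 1.2-fold change), with SRSF2 at 1.24 and CLK1 at -0.87.

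By kind of gene, noncoding transcripts fell more often than they rose. Of 13199 protein-coding genes 5273 rose and 4561 fell, with a median of 0.04. Of 779 long intergenic noncoding genes 288 fell and 96 rose, 123 and 32 at least 2-fold (median -0.29). Of 918 antisense genes 283 fell and 124 rose, 135 and 45 at least 2-fold (median -0.19). In these 2 noncoding kinds 49.3% and 44.3% of genes were called, against 67.9% of all tested genes. Their falls lay near the 33.7% of all, and their rises lay below the 34.2% of all. Falls of at least 2-fold were above the 6.31% of all. Large changes were also more frequent among genes under 1 CPM, and the part of level was not tested. Without the 2 libraries in which most genes had a count, 242 intergenic noncoding genes fell and 76 rose, and 224 antisense genes fell and 106 rose. Antisense genes can share reads with the gene across from them, since the kit is stranded but the strand setting used in counting is unknown here. The zinc finger genes of chromosome 19, a cluster of repressors with KRAB domains in large part, also fell more often: of 233 tested 134 fell and 26 rose (median -0.28), 84 and 13 against a 1.2-fold change, and 121 and 25 without the 2 libraries. ZNF844 fell from 50.5 ± 0.209 to 18.3 ± 1.98 CPM and ZNF558 from 46.5 ± 2.46 to 17.4 ± 1.18 CPM, and ZNF576 rose from 6.48 ± 0.638 to 13.9 ± 1.45 CPM. These genes share stretches of sequence, and reads may not be assigned to each with certainty.

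Levels in the other media place these changes. The cells with neither nutrient had 550.1 ± 4.37 CPM of FASN and those with glutamine alone 444 ± 6.55 CPM, both between glucose alone (179 ± 3.02) and both nutrients (2055 ± 69). INSIG1 was lowest with glucose alone (30.9 ± 2.11 CPM), followed by glutamine alone (46.8 ± 2.61), neither (166 ± 1.97), glucose with NH4Cl (243 ± 7.39) and both nutrients (323 ± 6.42). GDF15 ran from 1.13 ± 0.257 CPM with both nutrients through 4.36 ± 0.389 with neither and 24.1 ± 0.837 with glutamine alone to 37.7 ± 1.52 with glucose alone and 50.3 ± 1.8 with NH4Cl. SESN2 held the same order up to 121 ± 0.0575 with neither and 177 ± 1.85 with glutamine alone, and then 357 ± 6.26 with NH4Cl and 452 ± 7.54 with glucose alone. LURAP1L was at 1.72 ± 0.494 CPM with neither nutrient and 1.6 ± 0.257 with both, which do not differ beyond their spread. So glutamine added without glucose raised the last 3 genes, by 2.47, 0.55 and 2.99, where with glucose it lowered them. This was not so of every large fall: DDIT4, EGR1 and MT1X fell without glucose too, by 1.35, 1.92 and 0.55. Changes without glucose rest on the scaling of media whose TMM factors lay apart. These were 0.793 to 0.794 with neither nutrient and 1.006 to 1.009 with glutamine alone. Small changes without glucose, such as that of MT1X, are therefore uncertain.

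**Figure D5:**
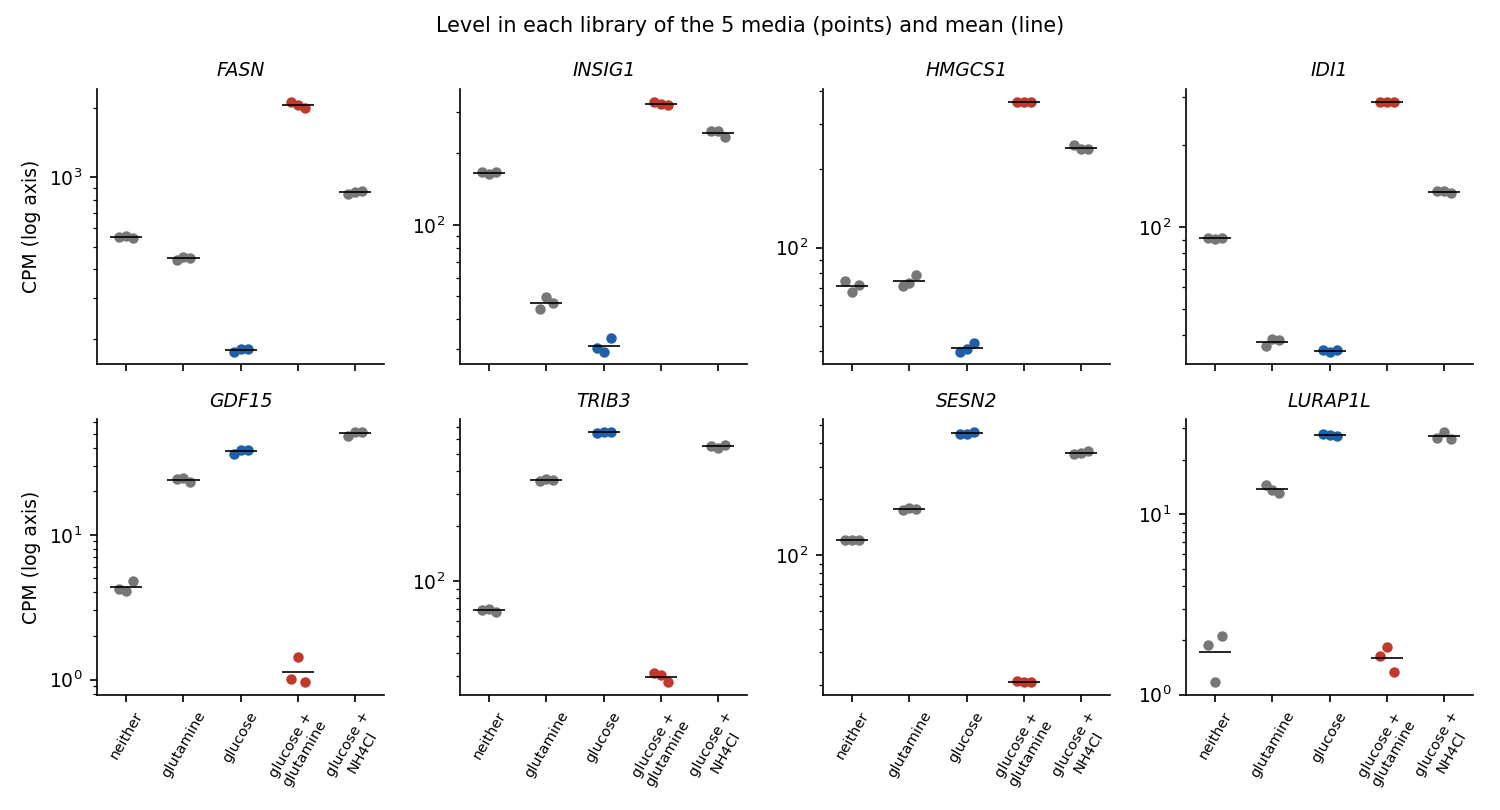
Points are the 3 libraries of each medium and lines their means, in CPM on a log axis that differs between panels, for 4 protein-coding genes each among the largest rises (top) and falls (bottom) with glutamine in glucose. Glucose alone (blue) has the lowest level of each upper gene, for example 179 ± 3.02 CPM of FASN, and both nutrients (red) the highest, 2055 ± 69 CPM.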

How the data were processed

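The authors deposited raw read counts per gene for 15 libraries. Per the submitters' processing notes, HISAT2 2.1.0 and featureCounts of Subread 1.5.1 were used with GRCh38.p12, and no source used here gives the strand setting or the handling of reads with several matches. Of 58395 gene IDs 58275 were found in GENCODE 29, which gave names, positions and exon overlaps, and 120 were not. Genes passing filterByExpr (16889) were fitted over all 15 libraries with edgeR 4.0.16 in R 4.3.3 (TMM scaling, quasi-likelihood test, Benjamini-Hochberg adjustment, threshold 0.05), with 1 coefficient per medium, so that the 5 media share the estimate of spread (10 residual degrees of freedom, common biological coefficient of variation 0.0221). The glutamine change with glucose, the same change without glucose and their difference are contrasts of that fit. CPM values use TMM-scaled totals. The main test was tried on simulated counts in which few genes changed, unlike these data. The scaling with most genes changed, and the difference between cells with and without glucose, were not simulated.

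Genes named as largest changes had a mean of at least 5 CPM over the compared libraries, a call and no overlap between media, 12 in each direction. The members and gene lists were chosen with earlier results of these data known. Within lists, the genes that changed most in each direction, a few that did not pass and genes of known role are named, some of them chosen after their values were seen. Alternatives were DESeq2 1.42.0 size factors and its Wald test with a local dispersion fit, library totals, a filter of 1 CPM in 3 libraries or none, the compared media alone, a replicate term, each library left out, a test against a 1.2-fold change and, added after seeing the data, the fit without the 2 libraries in which most genes had a count. The replicate numbers were not taken as pairs. Promoters came from RefSeq (GRCh38.p14) and were matched by symbol. Some tested genes, counted in the totals and lists, are not reported here by name.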

Additional observations from a re-analysis of the deposited data

Results flagged for a closer look

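The change with glutamine differed between cells with and without glucose in the genes given here, which are among those with the largest rises and the largest falls. They were chosen by the change with glucose, which is part of the difference, so the choice favours large differences. The share of all tested genes that differ in this way is not given here. Values are the difference of the log2 changes, with glucose minus without, from edgeR's interaction term over the 4 media. Their SE was formed from the F statistic in the same way as that of a change, with the same limit. For FASN, the fatty acid synthase gene, it was 3.83 ± 0.029, with changes of 3.52 with glucose and -0.31 without. For INSIG1, which holds back SREBP, it was 5.21 ± 0.050, with changes of 3.39 with glucose and -1.82 without. For HMGCS1, the HMG-CoA synthase gene, it was 3.09 ± 0.051, with changes of 3.15 with glucose and 0.06 without. For IDI1, the isoprenoid isomerase gene, it was 4.30 ± 0.052, with changes of 3.04 with glucose and -1.27 without. RUSC1-AS1 had the smallest difference, 0.66 ± 0.308 (adjusted p = 0.0457, edgeR's quasi-likelihood test), and it did not pass under the DESeq2 Wald test (0.67), library totals alone (0.33), no low-count filter (0.68) and without any 1 of 7 libraries in turn (0.49 to 0.71), while its exons share bases with FDPS on the opposite strand. GDF15, the stress cytokine gene, differed by -7.52 ± 0.150, from changes of -5.05 with glucose and 2.47 without. ASNSP1, the pseudogene of ASNS, differed by -6.92 ± 0.126, from changes of -4.58 with glucose and 2.34 without. TRIB3, the pseudokinase gene, differed by -6.85 ± 0.041, from changes of -4.46 with glucose and 2.39 without. SESN2, the mTORC1 inhibitor gene, differed by -4.99 ± 0.045, from changes of -4.44 with glucose and 0.55 without. LURAP1L, a gene in no list, differed by -7.10 ± 0.180, from changes of -4.11 with glucose and 2.99 without. SLC7A11, the cystine carrier gene, differed by -7.16 ± 0.062, from changes of -4.07 with glucose and 3.09 without. These 6 falling genes rose with glutamine where glucose was absent, but not all of the 12 largest falls did: DDIT3, SLC6A9 and ADM2 rose as well (0.62, 3.68 and 2.84), whereas DDIT4, EGR1 and MT1X fell (-1.35, -1.92 and -0.55). The TMM factors of the 2 media without glucose lay apart. Small changes without glucose, such as those of FASN, HMGCS1 and MT1X, therefore depend on the scaling and are uncertain. Groups of 3 libraries were not tested for a library far from the others. Glucose replicate 2 differed most from its group, with a chi-square per degree of freedom of 2.462 and 2.429 against replicates 1 and 3. That value was 1.296 between glucose replicates 1 and 3, and 1.338 to 1.445 among libraries with both nutrients.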

How the results depend on the processing

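Against a 1.2-fold change 7417 genes passed, 3814 higher and 3603 lower, in place of 11467, 5783 and 5684. All other alternatives left the 5 counts of called genes within 1.5 times, and no gene called under both settings changed sign. The number of genes called ran from 10580 without the 2 libraries in which most genes had a count to 11507 with DESeq2 size factors, and was 10711 with no filter and 10666 with the DESeq2 Wald test. Leaving out 1 library gave 10946 to 11084. With the replicate number as a block there were 11450 genes called, 5776 genes called higher with glutamine and 5674 genes called lower with glutamine (994 and 1063 at least 2-fold). Residuals of same-numbered libraries of the compared media correlated at 0.035, -0.017 and 0.068, and those of differently numbered ones at -0.082 to 0.043. In 3 of 6 libraries the best residual correlation was with the same number, which is too few to show whether equal numbers mark pairs. The replicate term moved the count of calls by less than 1.5 times. Depth limits genes under 1 CPM, of which 29.5% passed, and intervals of 3 libraries rest on a spread shared over 5 media.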
